A study of Mus musculus with 9 samples.

Results

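Kidneys of diabetic mice dosed with dehydrozingerone were compared with kidneys of healthy control mice. The comparison used 6 of the 9 whole-kidney messenger RNA libraries of the study, 3 in each group, chosen by their titles and column names, and it is described here across the 17179 genes that passed a filter on low counts. Control mice (NCD vehicle) were kept from 6 weeks of age on a diet with 11.32% of its calories from fat. The treated mice (HFD-STZ DHZ) were kept from the same age on a diet with 49.0%, were injected intraperitoneally with 30 mg/kg of streptozotocin, a toxin of the insulin-producing beta cells, on days 60 and 63 of the diet, and had raised fasting glucose on day 65. They were then given 50 mg/kg of dehydrozingerone, a phenolic compound of ginger, by mouth for 2 weeks. A diabetic group given the same diet and streptozotocin with vehicle (HFD-STZ vehicle, 3 libraries) shared the fit, and its values are set beside the others. Groups were taken from the titles, because the compound stands in the treatment label of all 9 libraries. The groups compared thus differed in diet, in streptozotocin and in the compound, and what each contributed cannot be told apart from these 6 libraries alone. Neither sex nor strain stands in the labels, and they do not say that each library came from a separate animal, so p-values measure the spread between libraries, which may be technical. Batch dates in the labels differ for every library and follow group order, which means that the effect of batch cannot be told apart from that of group.

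The kidney filters blood in the glomerulus and recovers most of the filtrate in the proximal tubule, which also makes glucose and ammonia and activates vitamin D. More distal segments adjust sodium, calcium, acid and water. In diabetes the proximal tubule carries a raised load of glucose and lipid, and oxidative stress there is met by NRF2 (gene Nfe2l2), a transcription factor held back by KEAP1 that turns on genes for glutathione synthesis, quinone reduction and haem breakdown through antioxidant response elements. DNA damage and other stress act through p53, whose targets halt the cell cycle or favour cell death. Dehydrozingerone shares part of the curcumin structure and has been studied as an antioxidant.

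Kidney identity and library quality were checked first. The endocytic receptor gene Lrp2 of the proximal tubule stood at 268, 411 and 344 counts per M (mega) of TMM-scaled library size (CPM) in the control libraries and at 407, 401 and 251 in the treated ones, each time in the order of the replicate numbers, which is kept throughout. Only 1 of 12 adrenal and 1 of 9 acinar pancreas markers passed the filter. Total counts were 17.1 to 25.9 M in NCD vehicle and 27.6 to 47.5 M in HFD-STZ DHZ, of which nuclear protein-coding genes held 4.59 to 8.49 M and 7.63 to 15.2 M. Mitochondrial genes took 39.2% to 51.5% of counts in NCD vehicle and 43.1% to 46.3% in HFD-STZ DHZ. Pseudogenes took 20.2% to 25.7% and 21.5% to 22.9%. The TMM scaling factors were 0.72, 1.41 and 1.63 in NCD vehicle and 1.23, 1.37 and 1.25 in HFD-STZ DHZ. In each group compared 1 of the 3 libraries carried Y-linked transcripts in place of Xist, namely NCD vehicle replicate 1 and HFD-STZ DHZ replicate 3, as did HFD-STZ vehicle replicates 2 and 3. The first pair also stood apart in other ways. The nuclear RNA Malat1 took 15.1% of the counts outside mitochondrial genes and pseudogenes in NCD vehicle replicate 1 against 6.16% and 6.90% in the other control libraries and 3.58% to 5.91% in HFD-STZ DHZ. HFD-STZ DHZ replicate 3 stood apart in injury and proliferation genes, whose values are given with and without it below. HFD-STZ vehicle replicate 2, which enters this comparison through the shared spread and the scaling, stood farthest apart, with 2.13 M counts in nuclear protein-coding genes and Malat1 at 24.3%. Without it 3706 genes were called in place of 2352.

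Of the 17179 genes, 2352 (13.7%) differed between HFD-STZ DHZ and NCD vehicle at an adjusted p below 0.05 (edgeR quasi-likelihood test, Benjamini-Hochberg adjustment over all genes, two-sided), 1084 higher (6.31%) and 1268 lower (7.38%). At least a 2-fold change was estimated for 583 of the former and 958 of the latter. Of the calls, 1019 higher and 709 lower were protein-coding genes. Of 2096 long non-coding genes 17 were higher and 369 lower, with a median log2 fold change of −0.52, against 0.08 for protein-coding genes and 0.01 for all genes. A list of nuclear long non-coding RNAs had 3 of 7 lower and 1 higher (57.1% called, median −1.20, and −0.72 without NCD vehicle replicate 1). Leaving out 1 library left 0 (without HFD-STZ DHZ replicate 1) to 5 of these called. Meg3, an imprinted RNA, fell from 1.60, 1.33 and 1.38 to 0.764, 0.308 and 0.494 CPM (log2 change −1.48, adjusted p = 0.0284). The 3 libraries of either group did not overlap for 44.1% of genes, which is the background for each lack of overlap named below. For 5733 genes (33.4%) the 95% interval of the fold change lay within 2-fold of control in either direction. The plot of fold change against mean level shows some of the genes named in the text among all genes tested.

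**Figure D1:**
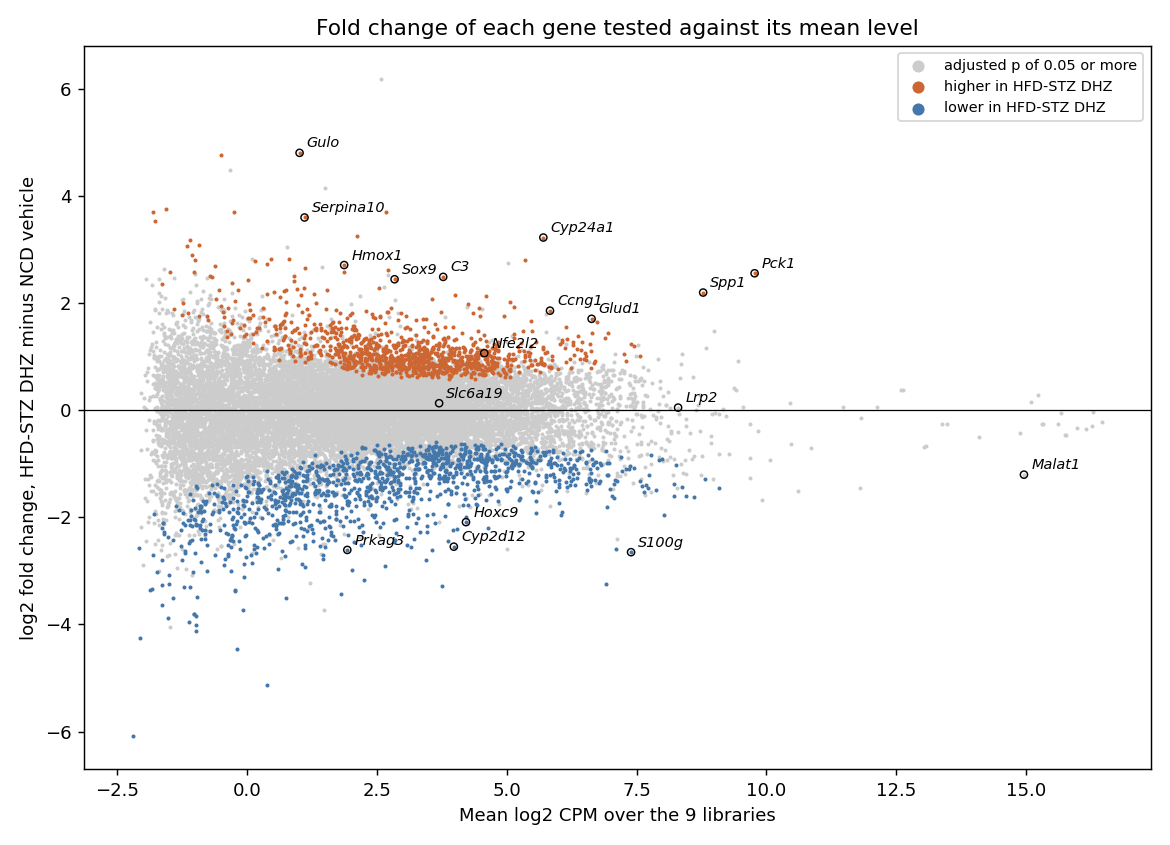
Each point is 1 of the genes tested, with its mean log2 CPM over the 9 libraries on the horizontal axis and its log2 fold change, HFD-STZ DHZ minus NCD vehicle, on the vertical axis; colour marks an adjusted p below 0.05. Of 17179 genes 1084 were higher and 1268 lower, and some of the genes named in the text are circled.

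The count of calls rested on all 6 libraries. Leaving out a single library left 112 calls (without HFD-STZ DHZ replicate 1), 245 (without its replicate 2), 259 (without NCD vehicle replicate 1), 779 (without its replicate 2), 1627 (without HFD-STZ DHZ replicate 3) or 1675 (without NCD vehicle replicate 3). None of the 2352 calls changed direction in these fits. A call was kept in all 9 fits that left out 1 library, HFD-STZ vehicle included, by 96 genes, 39 higher and 57 lower, of which 53 are protein-coding (37 higher and 16 lower). These are referred to as calls that held in every leave-one-out fit. Other calls of this comparison in the text were lost in at least 1 of them, except those of Abcc6, Ces2e, Dzip1 and Gm3776, which also held. Genes named here that fall outside the naming rule given with the processing, from among these 53 and from the gene lists, were chosen after their values were seen.

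Calls also moved with GC content. Among protein-coding genes, those called higher had a median GC content of 44.3% and those called lower 52.1%, against 49.6% for all tested. In the decile of lowest GC content 244 genes were called higher and 47 lower, and in that of highest 7 were higher and 110 lower. The median log2 fold change ran from 0.40 in the former to −0.36 in the latter, and in HFD-STZ vehicle against NCD vehicle from 0.14 to −0.17. The part of GC content in each result was not tested beyond a fit with a GC offset for each library, added after seeing the data, which called 2317 genes and kept 1961 (83.4%) of the 2352 calls. Where that fit ends the call of a named gene, this is said beside it.

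**Figure D2:**
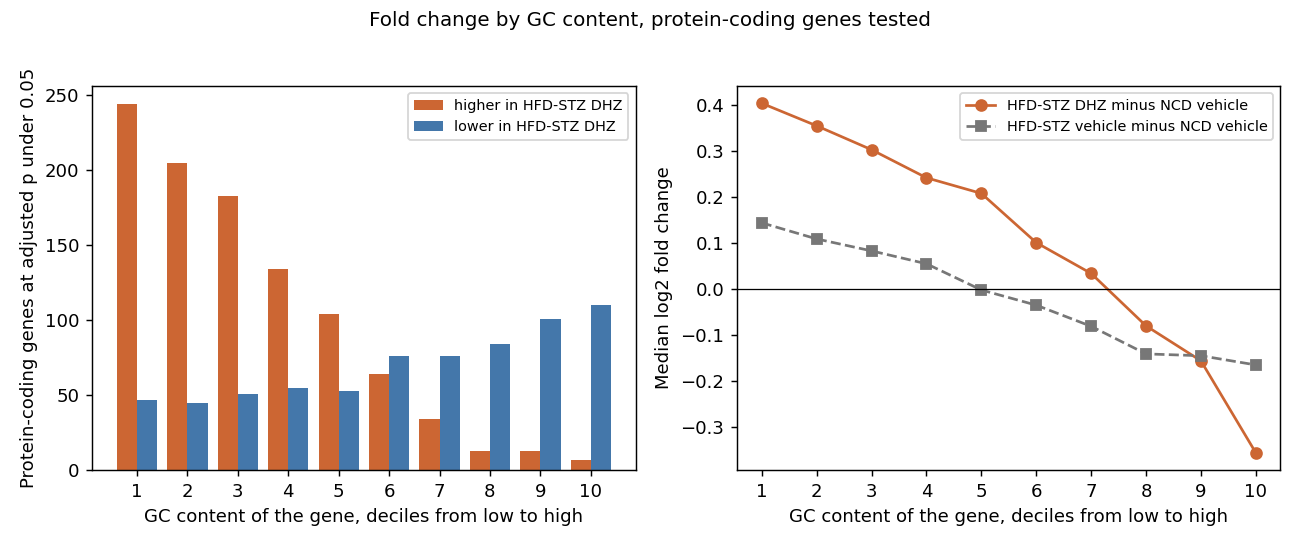
Protein-coding genes are split into deciles by GC content, from low (1) to high (10). The left panel gives the number called higher and lower in HFD-STZ DHZ against NCD vehicle, which ran from 244 and 47 in the first decile to 7 and 110 in the last; the right panel gives the median log2 fold change of each decile for that comparison and for HFD-STZ vehicle against NCD vehicle.

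Genes of vitamin D and calcium handling held the gene with the lowest adjusted p among the protein-coding genes named here. S100g encodes calbindin-D9k, a calcium carrier of the distal tubule that vitamin D induces. It stood at 337, 461 and 385 CPM in NCD vehicle, at 61.8, 76.2 and 50.4 in HFD-STZ DHZ and at 41.6, 41.9 and 58 in HFD-STZ vehicle (log2 fold change −2.65, SE 0.28, adjusted p = 0.00309). Every treated library lay below every control library, by a wide margin, and the call held in every leave-one-out fit. Cyp24a1, the enzyme that inactivates vitamin D, rose from 8.07, 5.03 and 7.92 to 96.3, 23.6 and 76.7 CPM (log2 fold change 3.22, SE 0.70, adjusted p = 0.0222). Cyp27b1, which makes the active hormone, fell from 3.15, 1.08 and 1.02 to 0.0294, 0.247 and 0.465 CPM (log2 fold change −2.78, SE 0.72, adjusted p = 0.028), with NCD vehicle replicate 1 the highest control. With that library left out the change was −2.06 (adjusted p = 0.133), and without HFD-STZ DHZ replicate 3 it was −3.43 (adjusted p = 0.0322). The level of Cyp27b1 in HFD-STZ DHZ replicate 1 lay below that of 3 counts (0.0882 CPM), so the size of its fall is uncertain. The groups did not overlap for either enzyme, so that the gene for inactivation was high and the gene for activation low in each treated library. Gc, the plasma carrier of vitamin D, rose from 4.17, 20.4 and 14.1 to 90.7, 148 and 33.6 CPM (log2 change 2.81, adjusted p = 0.0341). Calb1, a second calcium carrier, fell from 112, 123 and 111 to 72.5, 53.2 and 38.8 CPM (log2 change −1.07, adjusted p = 0.0364; adjusted p = 0.0669 with the GC offset). The vitamin D receptor gene Vdr had a log2 change of 0.61 (adjusted p = 0.111) and the calcium channel gene Trpv5 one of 0.49 (adjusted p = 0.306). The groups overlapped for Trpv5 but not for Vdr, while 44.1% of all genes had no overlap. In the list of 16 genes for vitamin D, calcium and phosphate, 2 were higher and 3 lower (31.2%, against 13.7% of all genes). Their median was 0.01, and 1 (without NCD vehicle replicate 1) to 5 were called when 1 library was left out.

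**Figure D3:**
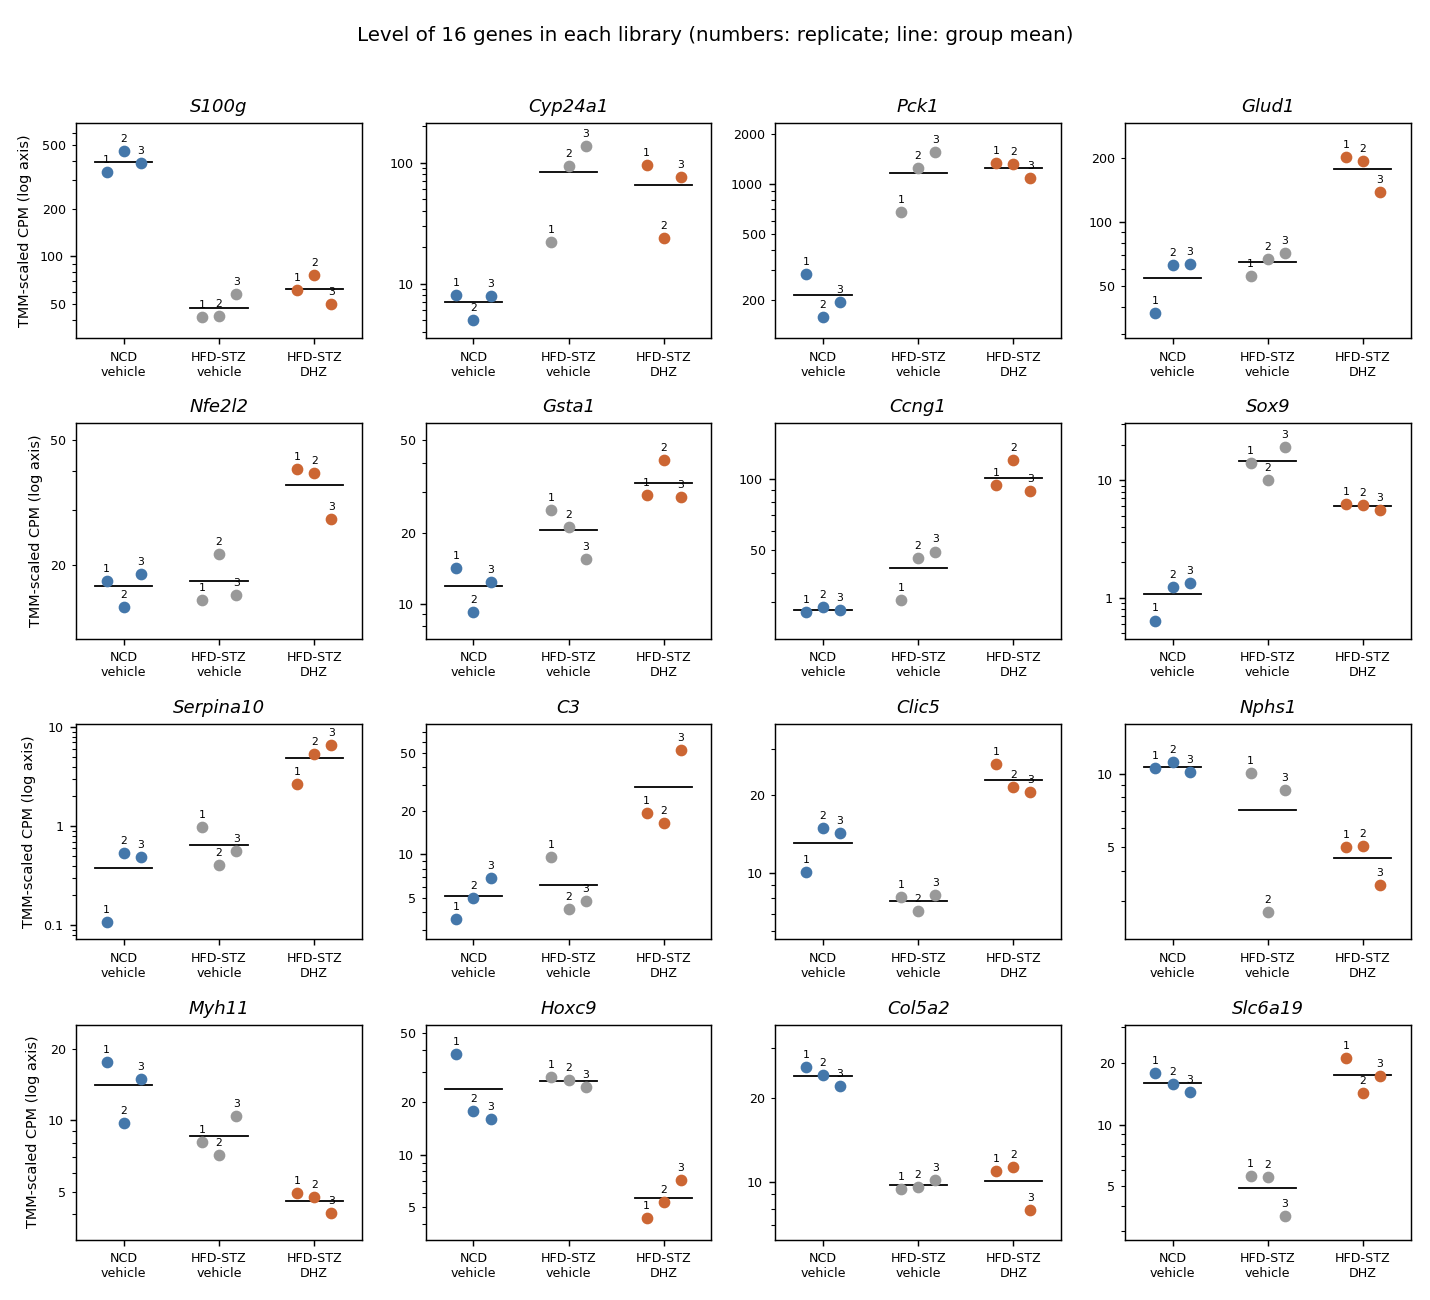
CPM of 16 genes on log axes in the 3 libraries of each group, with replicate numbers beside the points and a line at each group's mean. S100g, Nphs1, Myh11, Hoxc9 and Col5a2 were lower in each HFD-STZ DHZ library than in each NCD vehicle library, Slc6a19 overlapped between these groups, and the other 10 genes were higher.

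Several enzymes that feed glucose and ammonia production in the proximal tubule rose. Pck1, the phosphoenolpyruvate carboxykinase that commits carbon to glucose, stood at 287, 158 and 194 CPM in NCD vehicle and 1342, 1324 and 1089 in HFD-STZ DHZ (log2 fold change 2.56, SE 0.39, adjusted p = 0.00832). Its 3 treated libraries lay close together, well above the controls, and HFD-STZ vehicle lay at 673, 1242 and 1566 CPM. Glud1, glutamate dehydrogenase, rose from 37.4, 62.6 and 63.8 to 202, 195 and 138 CPM (log2 fold change 1.71, SE 0.27, adjusted p = 0.00883), with HFD-STZ vehicle at 55.9, 67.3 and 71.3. Its treated libraries thus lay above all libraries of both other groups. Mdh1, the cytosolic malate dehydrogenase, rose from 52.4, 74.2 and 67.3 to 219, 227 and 164 CPM (log2 fold change 1.66, SE 0.26, adjusted p = 0.00832). The calls of Pck1, Glud1 and Mdh1 held in every leave-one-out fit. The glucose-6-phosphatase gene G6pc (log2 change 0.53, adjusted p = 0.099) and the fructose bisphosphatase gene Fbp1 (log2 change 0.76, adjusted p = 0.107) did not pass. Their groups did not overlap, as was the case for 44.1% of all genes. Of 12 genes for gluconeogenesis and ammonia production 3 were called, each higher (25.0%, against 13.7% of all genes). The list's median was 0.41, and 2 (without NCD vehicle replicate 1) to 5 were called when 1 library was left out.

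Fatty acid oxidation genes rose in part, by about 1 log2 unit. Cpt1a, which admits long-chain fatty acids to mitochondria, stood at 29.8, 31.9 and 29.7 CPM in NCD vehicle and 64.7, 61.5 and 61.1 in HFD-STZ DHZ (log2 fold change 1.04, SE 0.20, adjusted p = 0.0118), a narrow spread in both groups. Etfdh, which passes electrons from fatty acid oxidation to the respiratory chain, rose from 9.52, 9.76 and 10.3 to 25.1, 23.6 and 18.8 CPM (log2 change 1.19, adjusted p = 0.00973). Its electron donor has a subunit that rose (Etfa, log2 change 1.34, adjusted p = 0.0222) and a subunit that fell (Etfb, log2 change −1.02, adjusted p = 0.0289; adjusted p = 0.164 with the GC offset), but 58.2% of the exon bases of Etfb are shared with the overlapping gene model Gm45233. In the list of 27 genes of fatty acid oxidation 6 were higher and 1 lower (25.9%, against 13.7% of all genes), with a median of 0.55. Between 0 (without HFD-STZ DHZ replicate 1) and 10 were called when 1 library was left out. Outside the list, the acyl-CoA synthetase Acsl4 rose from 5.88, 6.77 and 6.52 to 24.3, 16.7 and 15.4 CPM (log2 change 1.55, adjusted p = 0.00832). Mogat2, which re-esterifies monoacylglycerol, rose from 0.695, 0.582 and 0.409 to 3.85, 2.75 and 3.84 CPM (log2 change 2.65, adjusted p = 0.00903). The calls of Acsl4 and Mogat2 held in every leave-one-out fit, with the treated libraries apart from the controls in each. The lipogenic factor Mlxipl fell from 95.8, 75.1 and 64.9 to 31.3, 21.8 and 49.6 CPM (log2 change −1.20, adjusted p = 0.0264; adjusted p = 0.0504 with the GC offset). Lpl, lipoprotein lipase, which fat cells also make, fell from 921, 428 and 525 to 283, 224 and 260.30 CPM (log2 change −1.29, adjusted p = 0.0466), the 1 called of 11 white adipocyte markers, whose summed level was 958, 467 and 631 CPM in NCD vehicle and 389, 261 and 309.90 in HFD-STZ DHZ. Lpl alone made up most of that sum in each library. The part of fat cells in these values was not tested.

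Energy-sensing genes moved in both directions. Prkaa2, a catalytic subunit of the kinase AMPK, rose from 8.98, 10.9 and 9.89 to 24.3, 25.5 and 18.8 CPM (log2 fold change 1.20, SE 0.20, adjusted p = 0.00896), while 2 kinases that activate AMPK fell, Camkk2 (log2 change −1.01, adjusted p = 0.023) and Stk11 (log2 change −0.76, adjusted p = 0.0451; adjusted p = 0.102 with the GC offset). Ppargc1b, a coactivator of mitochondrial genes, fell from 33.7, 30.6 and 23.6 to 8.94, 8.87 and 11.7 CPM (log2 fold change −1.57, SE 0.26, adjusted p = 0.00897). The mitochondrial deacetylase gene Sirt3 fell to a narrow range, from 47.8, 35.1 and 27 to 18.1, 18.7 and 18.8 CPM (log2 change −0.98, adjusted p = 0.0238). Of the 21 genes in this list 2 were higher and 4 lower (28.6%, against 13.7% of all genes), with a median of −0.26. Calls ranged from 0 (without HFD-STZ DHZ replicate 1) to 8 when 1 library was left out. Of 28 nuclear genes of oxidative phosphorylation 1 was called (Sdha, log2 change 0.96, adjusted p = 0.0254), with a median of 0.34, and of the 13 protein genes of the mitochondrial genome edgeR, DESeq2 and limma-voom each called 0, with 0 at an unadjusted p below 0.05.

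The NRF2 antioxidant list had the highest share of called members among the lists with at least 10 genes tested, 10 of 19 against 13.7% of all genes, with 9 higher, 1 lower and a median of 1.06. Its promoters were read for the core of the antioxidant response element, TGACNNNGC on either strand, in RefSeq windows of 300 bases (250 before to 50 after the start, build GRCm38.p6). Windows were given for 16 of the 20 genes listed and for 6 of the 9 that rose, and the core was in 4 of these 6. Over the whole list it was in 8 of 16 (50.0%), among them Srxn1, G6pdx, Pgd and Abcc2, which were not called. It was in 12.4% of all 32841 windows, and in 16.8% of the tested protein-coding genes with a window, 20.0% of those called higher and 14.3% of those called lower. A match describes the letters and is not a site of binding. The stretches with the core are shown for these 4 called genes, as the letters through which NRF2 is known to act, in the direction of transcription and with the core in capitals.
Nfe2l2: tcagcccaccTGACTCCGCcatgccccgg
Gclm: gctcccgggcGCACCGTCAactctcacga
Txnrd1: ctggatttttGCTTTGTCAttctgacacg
Me1: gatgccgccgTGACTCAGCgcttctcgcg
They lie at chr2:75704885-75704913 (minus strand), chr3:122245413-122245441 (plus strand), chr10:82859104-82859132 (plus strand) and chr9:86695902-86695930 (minus strand). The core begins 240, 134, 92 and 6 bases before the start. In Gclm and Txnrd1 it is on the opposite strand, so the capitals show its reverse complement, and in Me1 it runs across the start.

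The values of the regulator, its inhibitor and the enzymes follow in that order. Nfe2l2 stood at 17.9, 14.8 and 18.8 CPM in NCD vehicle and 40.3, 39.2 and 28.1 in HFD-STZ DHZ (log2 fold change 1.07, SE 0.22, adjusted p = 0.0146), and at 15.6, 21.7 and 16.1 in HFD-STZ vehicle. Its inhibitor Keap1 fell from 26.4, 20.2 and 20.6 to 9.99, 14.5 and 14.5 CPM (log2 change −0.79, adjusted p = 0.0468; adjusted p = 0.123 with the GC offset). Neither gene's groups overlapped. Both subunits of the enzyme that limits glutathione synthesis rose, the catalytic Gclc from 74.5, 45.1 and 40.8 to 131, 133 and 123 CPM (log2 change 1.27, adjusted p = 0.021) and the regulatory Gclm from 42, 66.3 and 59.7 to 116, 147 and 106 CPM (log2 change 1.13, adjusted p = 0.0357). Nqo1, a quinone reductase, rose from 12.2, 10.5 and 11.1 to 25, 26.4 and 29.9 CPM (log2 change 1.27, adjusted p = 0.0271), levels that HFD-STZ vehicle replicates 2 and 3 also reached (10.8, 29.4 and 31.8 CPM in that group). Txnrd1, thioredoxin reductase, rose from 9.41, 11.9 and 10.3 to 22.6, 23.4 and 24.2 CPM (log2 change 1.15, adjusted p = 0.0187) and kept a narrow spread in both groups. Me1, malic enzyme, a source of reducing power, rose from 30.0, 20.0 and 26.6 to 55.4, 65.1 and 62.6 CPM (log2 change 1.26, adjusted p = 0.0444; adjusted p = 0.057 with the GC offset). All treated libraries lay above all controls in these genes, against a background of 44.1% of all genes without overlap in either direction. Hmox1, haem oxygenase, rose from 1.50, 0.997 and 1.05 to 2.03, 7.77 and 13.2 CPM (log2 change 2.71, adjusted p = 0.0333) with a wide spread in the treated group, and without HFD-STZ DHZ replicate 3 the change was 2.09 (adjusted p = 0.0636).

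Glutathione transferase Gsta1 rose from 14.2, 9.18 and 12.4 to 29.2, 41.2 and 28.6 CPM (log2 fold change 1.47, SE 0.25, adjusted p = 0.00963), the one NRF2 list member whose call held in every leave-one-out fit. The near-identical Gsta2 (log2 change 1.43, adjusted p = 0.0174) and Gm3776 (log2 change 1.83, adjusted p = 0.00987) rose too, but reads that fit more than 1 of these copies could not be separated, so their single values are uncertain. The same holds for the carboxylesterases Ces1d (log2 change 1.76, adjusted p = 0.0282) and Ces2e (log2 change 2.29, adjusted p = 0.00897), which belong to clusters of similar genes. Srxn1 (log2 change 0.77, adjusted p = 0.0679), G6pdx (log2 change 0.81, adjusted p = 0.0717) and Abcc2 (log2 change 1.23, adjusted p = 0.0616) did not pass. The groups did not overlap for these genes, as for 44.1% of all genes. Gstm1 (log2 change 0.11, 95% interval −0.50 to 0.72) and Gstm2 (log2 change −0.13, 95% interval −0.79 to 0.53) overlapped, and their intervals lay within 2-fold of control. Leaving out 1 library left 1 (without HFD-STZ DHZ replicate 2) to 12 NRF2 list members called, 2 without NCD vehicle replicate 1 and 5 without HFD-STZ DHZ replicate 3, while the median of the list ran from 0.97 to 1.14. Outside the list, the peroxiredoxin Prdx1 rose from 64.4, 73.1 and 84.6 to 182, 199.53 and 187 CPM (log2 change 1.36, adjusted p = 0.0209), and the cysteine protease inhibitor Cstb from 2.14, 4.61 and 6.11 to 13.9, 15 and 17.2 CPM (log2 change 1.82, adjusted p = 0.0104), a call that held in every leave-one-out fit.

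Part of the genes induced by p53 rose as well. Ccng1, a cyclin that p53 induces, stood at 27.2, 28.5 and 27.9 CPM in NCD vehicle and 93.7, 119.77 and 89.2 in HFD-STZ DHZ (log2 fold change 1.86, SE 0.24, adjusted p = 0.00832), with HFD-STZ vehicle between them at 30.7, 46.3 and 49.2. The 3 control libraries differed by less than 2 CPM. Trp53inp1, which promotes autophagy and cell death, rose from 6.10, 4.15 and 6.13 to 15.2, 20.6 and 17.4 CPM (log2 fold change 1.70, SE 0.24, adjusted p = 0.00832). Eda2r, a death receptor of the tumour necrosis factor family, rose from 0.535, 0.499 and 0.383 to 1.32, 1.87 and 3.17 CPM (log2 fold change 2.18, SE 0.40, adjusted p = 0.0107). These 3 calls held in every leave-one-out fit. Pmaip1, a cell death activator, rose from 1.07, 2.16 and 1.25 to 3.59, 4.81 and 5.35 CPM (log2 change 1.61, adjusted p = 0.013), and Zmat3 (log2 change 1.37, adjusted p = 0.0159), the p53 inhibitor Mdm2 (log2 change 0.99, adjusted p = 0.0236) and the death receptor Tnfrsf10b (log2 change 1.59, adjusted p = 0.0323) rose too. Cdkn1a, the cell cycle inhibitor p21, rose from 2.14, 1.62 and 1.79 to 2.85, 6.65 and 10.6 CPM (log2 change 1.86, adjusted p = 0.015), its lowest treated library close above the controls. The p53 gene itself, Trp53, had a log2 change of 0.33 (95% interval −0.15 to 0.82, adjusted p = 0.33), and Bax (log2 change 0.10, adjusted p = 0.911) and Fas (log2 change −0.05, adjusted p = 0.918) did not pass. Of 18 genes in the list 8 were higher and 0 lower, where 6.31% of all genes were higher, with a median of 1.18, and 3 (without NCD vehicle replicate 1) to 12 were called when 1 library was left out.

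**Figure D4:**
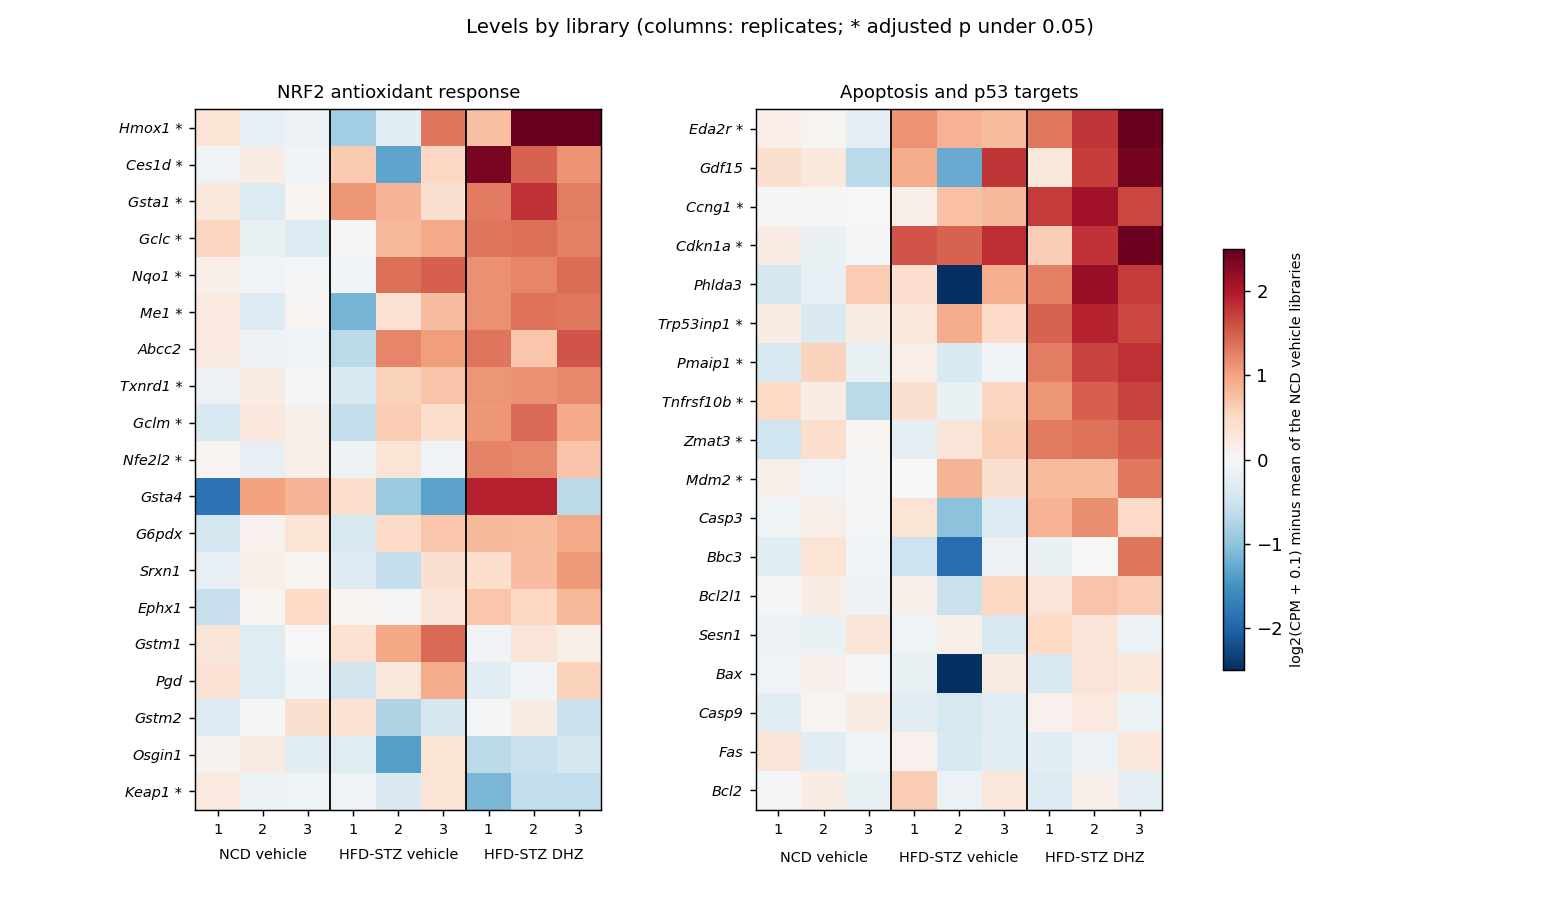
Heat maps of the NRF2 and the apoptosis and p53 lists: rows are tested members ordered by fold change, columns are libraries, colour is log2(CPM + 0.1) minus the mean of the 3 NCD vehicle libraries, limited to 2.5 either way, and a star marks an adjusted p below 0.05 for HFD-STZ DHZ against NCD vehicle. Of the starred rows 17 were higher and Keap1 was lower.

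Cell division genes were low in all libraries, and 4 of the 15 listed rose in the treated group, namely Pcna, Mki67, the replication helicase subunit Mcm5 (log2 change 1.81, adjusted p = 0.0417) and the nucleotide reductase subunit Rrm2 (log2 change 1.90, adjusted p = 0.0295). Pcna, the clamp of DNA replication, rose from 4.60, 6.27 and 6.57 to 12, 15.5 and 12.6 CPM (log2 fold change 1.20, SE 0.21, adjusted p = 0.0101). Outside the list, Cks2, a partner of cyclin-dependent kinases, rose from 3.42, 2.49 and 2.38 to 6.88, 8.84 and 11.7 CPM (log2 change 1.73, adjusted p = 0.00963), and Spc25, of the kinetochore, from 1.82, 3.49 and 2.71 to 11.4, 9.21 and 6.69 CPM (log2 change 1.76, adjusted p = 0.00832); both calls held in every leave-one-out fit. Cdkn1c, a cell cycle inhibitor also outside it, fell from 17.2, 18.2 and 16.5 to 8.91, 7.70 and 7.12 CPM (log2 change −1.13, adjusted p = 0.0093), likewise held, though with the GC offset its adjusted p was 0.0512. A gene model on the opposite strand covers 30.7% of the exon bases of Cdkn1c. Mki67, the common proliferation marker, rose from 1.18, 0.914 and 1.76 to 3.59, 2.75 and 17.2 CPM (log2 change 2.57, adjusted p = 0.0358; adjusted p = 0.0511 with the GC offset). HFD-STZ DHZ replicate 3 stood far above the other treated libraries in Mki67, and without it the change was 1.28 (adjusted p = 0.0735). None of the 15 listed genes was called lower, and 26.7% were called, against 13.7% of all genes. Their median was 1.20, and 0.57 with 1 call without that library.

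Of the tubular injury markers, 4 rose, and several were far higher in 1 treated library than in the others. Sox9, a transcription factor that tubule cells switch on after injury, stood at 0.642, 1.25 and 1.33 CPM in NCD vehicle, 6.26, 6.19 and 5.55 in HFD-STZ DHZ and 14, 9.98 and 19.3 in HFD-STZ vehicle (log2 fold change 2.44, SE 0.31, adjusted p = 0.00832). The treated libraries lay within 1 CPM of each other, above all controls and below all untreated diabetic libraries, and the call held in every leave-one-out fit. Spp1, which encodes osteopontin, rose from 105, 250.01 and 256 to 440.08, 444 and 1921 CPM (log2 change 2.20, adjusted p = 0.0309), and without HFD-STZ DHZ replicate 3 the change was 1.13 (adjusted p = 0.0952). Havcr1, which encodes kidney injury molecule 1, stood at 0.374, 0.291 and 0.0767 CPM in NCD vehicle and 0.235, 2.59 and 46.3 in HFD-STZ DHZ and did not pass (adjusted p = 0.0924). Lcn2, which encodes the injury protein NGAL, stood at 0.695, 0.249 and 1.46 CPM in NCD vehicle and 1.26, 2.39 and 12.5 in HFD-STZ DHZ (adjusted p = 0.0766), and the adhesion gene Vcam1 at 5.45, 4.99 and 3.81 CPM and 5.82, 6.74 and 29.8 CPM (adjusted p = 0.0923). In these 3 genes HFD-STZ DHZ replicate 3 was by far the highest of the 6 libraries. Of 14 injury genes tested 4 were higher and 0 lower (28.6%, against 13.7% of all genes). Their median was 1.72, and 0.98 with 3 calls without that library. The summed level of the list was 159, 322 and 356 CPM in NCD vehicle and 607, 625 and 2172 in HFD-STZ DHZ. Spp1 alone made up most of this sum in each library.

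Genes of protein folding in the endoplasmic reticulum rose in part, by about 1 log2 unit. Xbp1, a transcription factor of the unfolded protein response, rose from 11, 15.5 and 18 to 28.4, 32 and 31.1 CPM (log2 fold change 1.04, SE 0.25, adjusted p = 0.0234). The oxidoreductase Ero1l rose from 3.64, 5.15 and 5.85 to 11.4, 11.3 and 9.42 CPM (log2 change 1.12, adjusted p = 0.0134), and the disulfide isomerases Pdia4 (log2 change 0.92, adjusted p = 0.0236) and Pdia6 (log2 change 0.98, adjusted p = 0.0237) and the co-chaperone Dnajb9 (log2 change 1.03, adjusted p = 0.0219) rose too. The main chaperone gene Hspa5 rose from 62.6, 69.5 and 70.2 to 108, 181 and 101 CPM (log2 change 0.95, adjusted p = 0.0365; adjusted p = 0.0503 with the GC offset). The stress factors Atf4 (log2 change −0.04, 95% interval −0.51 to 0.43) and Ddit3 (log2 change −0.21, 95% interval −0.72 to 0.30) overlapped between the groups. Asparagine synthetase, Asns, an ATF4 target, rose from 0.267, 0.499 and 0.665 to 2.67, 6.26 and 1.57 CPM (log2 change 2.82, adjusted p = 0.0141), and without HFD-STZ DHZ replicate 2 the change was 2.10 (adjusted p = 0.0731). Of 18 genes of the unfolded protein response 7 were higher and 0 lower (38.9%, against 13.7% of all genes), with a median of 0.67. Single libraries left out gave 0 (without NCD vehicle replicate 1) to 9 calls among them. In the degradation pathways, Atg12, which conjugates to an autophagy protein, rose from 4.92, 6.07 and 6.47 to 16.8, 17.8 and 11.7 CPM (log2 change 1.41, adjusted p = 0.00832) and held in every leave-one-out fit, while the lysosomal protease Ctsl rose from 43.4, 50.7 and 56.4 to 111, 123 and 129.92 CPM (log2 change 1.28, adjusted p = 0.0104). Lamp1, a lysosomal membrane protein, rose from 35, 66.1 and 73 to 158, 166 and 132 CPM (log2 change 1.39, adjusted p = 0.0139), and Psmd14, a deubiquitinase of the proteasome lid, from 7.06, 7.02 and 8.59 to 20.1, 18.9 and 15.1 CPM (log2 change 1.25, adjusted p = 0.0105). Of 23 lysosome genes 2 were higher, of 22 proteasome genes 4 were higher, and 0 of either list were lower. The shares called, 8.7% and 18.2%, lay below and near the 13.7% of all genes. Leaving out 1 library left 0 (without HFD-STZ DHZ replicate 1) to 4 and 0 (without NCD vehicle replicate 1) to 7 calls. Of 18 autophagy genes 2 were higher and 1 was lower (16.7% called), with a median of 0.08. The lower one was Atg7 (log2 change −0.72, adjusted p = 0.0415, and 0.0583 with the GC offset). With 1 library left out, 1 (without NCD vehicle replicate 1) to 3 of the 18 were called.

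Coagulation and complement genes rose in part. Fga, a fibrinogen chain, stood at 2.57, 2.12 and 2.27 CPM in NCD vehicle and 6.79, 15.2 and 20.6 in HFD-STZ DHZ (log2 fold change 2.62, SE 0.36, adjusted p = 0.00832). Serpina10, an inhibitor of coagulation factor X, rose from 0.107, 0.540 and 0.486 to 2.65, 5.32 and 6.57 CPM (log2 fold change 3.60, SE 0.51, adjusted p = 0.00832). NCD vehicle replicate 1 lay below the level of 3 counts for Serpina10 (0.160 CPM), so the size of that rise is uncertain. Both calls held in every leave-one-out fit, and HFD-STZ vehicle lay in or near the control range for both, at 2.76, 2.02 and 3.05 CPM for Fga and 0.976, 0.405 and 0.562 CPM for Serpina10. Fgg, another fibrinogen chain, rose from 0.855, 1.08 and 1.30 to 2.67, 3.29 and 25.5 CPM (log2 change 3.25, adjusted p = 0.0424), and without HFD-STZ DHZ replicate 3 the change was 1.46 (adjusted p = 0.0409); with the GC offset its adjusted p was 0.0576. C3, the central complement component, rose from 3.58, 4.99 and 6.90 to 19.2, 16.5 and 52.1 CPM (log2 change 2.49, adjusted p = 0.0134), and without that library by 1.79 (adjusted p = 0.0213). The complement regulator Cd55 (log2 change 1.57, adjusted p = 0.0184) and tissue factor, F3 (log2 change 1.30, adjusted p = 0.0141), rose too. Of 20 genes 6 were higher and 0 lower (30.0%, against 13.7% of all genes). Their median was 0.38, with 1 (without NCD vehicle replicate 1) to 6 calls when 1 library was left out. Fibrinogen is also a liver product. Of 10 liver markers tested 9 had a positive estimate, with a median of 1.04 and a summed level of 106, 47.9 and 52.2 CPM in NCD vehicle and 107, 112 and 301 in HFD-STZ DHZ. Fga and Fgg were the called ones, and the part of liver RNA in their values was not tested. The third fibrinogen chain, Fgb, stood at 0, 0.623 and 0.281 and then 0.941, 0.802 and 4.97 CPM (adjusted p = 0.111), while albumin, Alb, stood at 1.60, 3.66 and 2.63 CPM in NCD vehicle and 4.00, 3.95 and 1.31 in HFD-STZ DHZ (log2 change 0.23, adjusted p = 0.769).

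Of 14 macrophage markers 5 were called (35.7%, against 13.7% of all genes), 4 higher and 1 lower. Lyz2, macrophage lysozyme, rose from 2.51, 3.57 and 6.59 to 12.1, 15.8 and 15.6 CPM (log2 change 1.75, adjusted p = 0.0238), the protease Ctss from 3.42, 3.82 and 5.09 to 8.17, 9.33 and 15.3 CPM (log2 change 1.40, adjusted p = 0.0138) and the complement subunit C1qb from 2.46, 1.99 and 2.71 to 4.70, 4.94 and 7.30 CPM (log2 change 1.23, adjusted p = 0.0298). Csf1r, the receptor for the macrophage growth factor, fell from 24.7, 38.7 and 30.6 to 10.7, 11.6 and 7.88 CPM (log2 change −1.64, adjusted p = 0.0115). The defining markers Cd68 (log2 change 1.00, adjusted p = 0.129) and Adgre1 (log2 change 1.14, adjusted p = 0.172) did not pass. The 14 markers had a median of 0.94, 0.56 without HFD-STZ DHZ replicate 3 and 0.82 without NCD vehicle replicate 1, and 1 (without NCD vehicle replicate 1) to 6 were called when 1 library was left out. Their summed level was 61.5, 85.2 and 83.3 CPM in NCD vehicle and 82.9, 91.9 and 135 in HFD-STZ DHZ. In whole tissue, fewer cells of a type and less RNA per cell cannot be told apart, and this holds for each cell type below. The chemokine Ccl28 rose from 0.428, 0.291 and 1.05 to 4.47, 13 and 7.21 CPM (log2 change 3.71, adjusted p = 0.0427; adjusted p = 0.0533 with the GC offset), and with NCD vehicle replicate 3 left out it was 4.53 (adjusted p = 0.0687). The chemokine Cxcl10 had a log2 change of 1.90 (adjusted p = 0.035), but without HFD-STZ DHZ replicate 3 the change was 1.14 (adjusted p = 0.126), and the NF-kB inhibitor gene Nfkbia fell (log2 change −0.90, adjusted p = 0.039; adjusted p = 0.0666 with the GC offset).

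**Figure D5:**
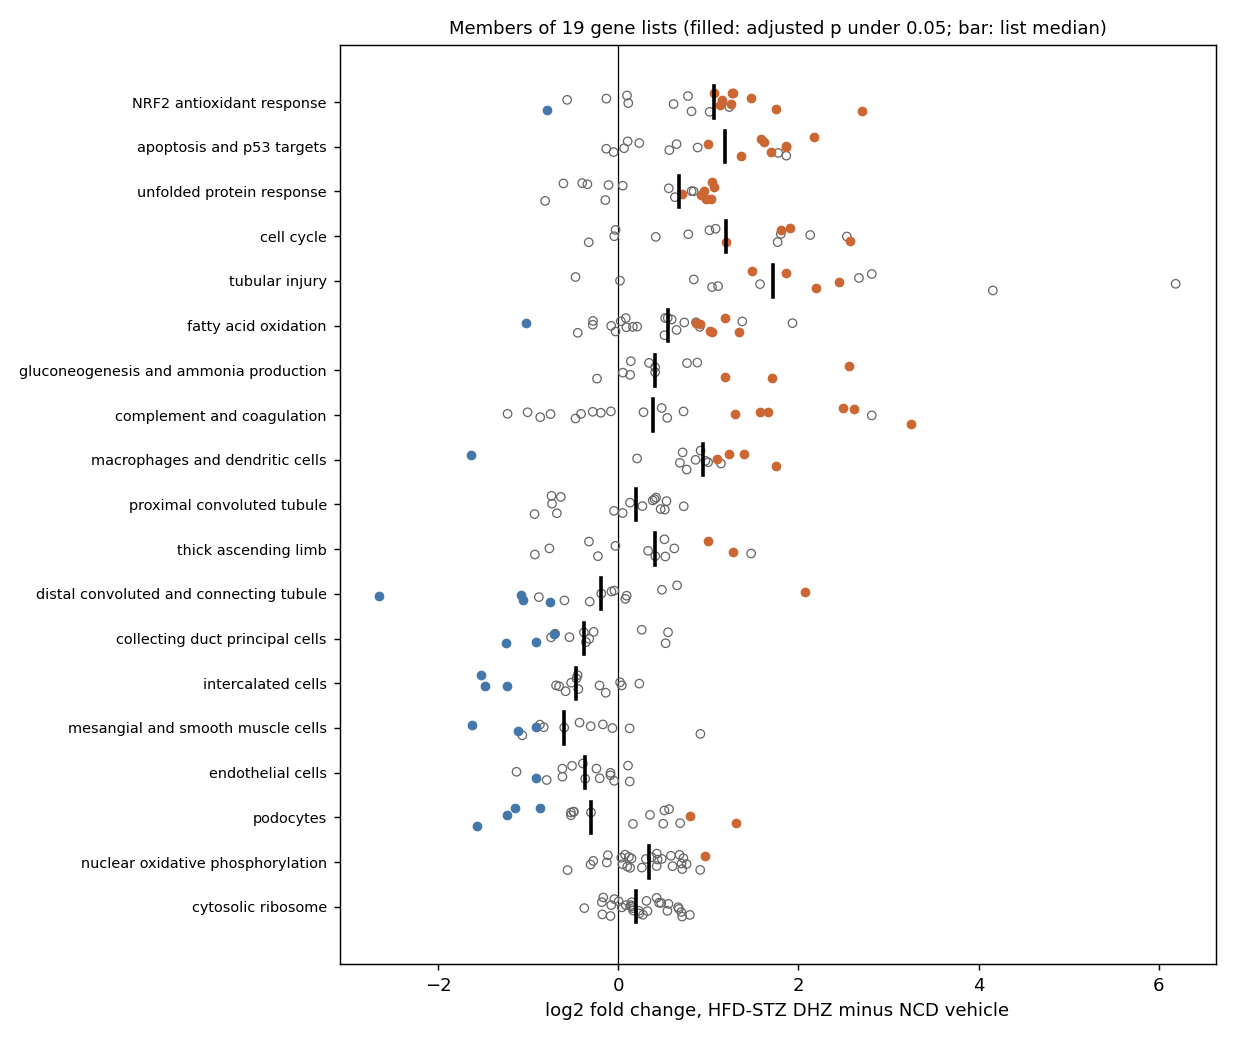
Log2 fold changes, HFD-STZ DHZ minus NCD vehicle, of the tested members of 19 gene lists, 1 point per gene and 1 row per list, filled where the adjusted p was below 0.05 and with a bar at the list's median. NRF2 and p53 lists had 9 and 8 members higher, and the 16 proximal convoluted tubule markers had none called.

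None of 16 markers of the proximal convoluted tubule was called by edgeR or limma-voom, while 2 were called by DESeq2 and 4 had an unadjusted p below 0.05. Their median was 0.20. Slc6a19, a neutral amino acid transporter, stood at 17.9, 15.9 and 14.4 CPM in NCD vehicle and 21.2, 14.3 and 17.2 in HFD-STZ DHZ (log2 change 0.13, 95% interval −0.36 to 0.62), against 5.58, 5.53 and 3.57 in HFD-STZ vehicle. The interval excludes a 2-fold difference from control. The glucose transporter Slc5a2 stood at 58.1, 49.9 and 39.7 CPM in NCD vehicle and at 28.9, 32.1 and 33.9 in HFD-STZ DHZ without overlap (log2 change −0.64, 95% interval −1.18 to −0.09, adjusted p = 0.104). No overlap was seen for 44.1% of all genes. The phosphate transporter Slc34a1 (log2 change −0.74, adjusted p = 0.177) overlapped. In the thick ascending limb Umod, which encodes uromodulin, stood at 100.04, 439 and 429 CPM in NCD vehicle and at 1029.90, 1168 and 493 in HFD-STZ DHZ (log2 change 1.48, adjusted p = 0.07), with NCD vehicle replicate 1 the lowest. Of 13 markers of that segment 2 rose (15.4% called, near the 13.7% of all genes). These were the potassium channel Kcnj1 (log2 change 1.27, adjusted p = 0.0395, and 0.05 with the GC offset) and the tight junction gene Cldn16 (log2 change 1.00, adjusted p = 0.0457). Without NCD vehicle replicate 1 neither was called.

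Of the called markers of the distal tubule and collecting duct, 10 were lower and 1 was higher. In the distal convoluted and connecting tubule Wnk4, a kinase that sets salt transport, fell from 67.7, 79.3 and 75.1 to 49.2, 25.3 and 32.6 CPM (log2 change −1.05, adjusted p = 0.0243; adjusted p = 0.0803 with the GC offset), Pvalb, parvalbumin, rose from 3.69, 5.57 and 3.81 to 22, 22.8 and 10.2 CPM (log2 change 2.07, adjusted p = 0.0115), and the sodium chloride cotransporter Slc12a3 overlapped (log2 change −0.08, adjusted p = 0.898). Of 15 genes there 1 was higher and 4 lower (median −0.19). Among 13 principal cell markers 3 fell and 0 rose (median −0.38), namely the transcription factor Gata3, from 23.1, 21.5 and 22.8 to 10.8, 14.4 and 10.4 CPM (log2 change −0.92, adjusted p = 0.0164), the sodium pump regulator Fxyd4 (log2 change −1.25, adjusted p = 0.0352) and the water channel Aqp3 (log2 change −0.71, adjusted p = 0.0365). Among 15 intercalated cell markers 3 fell and 0 rose (median −0.46), with Slc4a9, an anion exchanger, at 62.7, 51.6 and 33.6 CPM in NCD vehicle and 15.1, 15.7 and 22.2 in HFD-STZ DHZ (log2 change −1.48, adjusted p = 0.0172). In the background 7.38% of all genes fell. Without NCD vehicle replicate 1 there were 1, 0 and 0 calls left in these 3 lists, the fewest of any library left out.

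Podocyte genes moved in opposite directions. Nphs1, which encodes nephrin of the slit diaphragm, stood at 10.6, 11.2 and 10.2 CPM in NCD vehicle, 5.00, 5.04 and 3.49 in HFD-STZ DHZ and 10.1, 2.70 and 8.55 in HFD-STZ vehicle (log2 fold change −1.24, SE 0.35, adjusted p = 0.0367). Clic5 of the foot processes rose from 10.1, 14.9 and 14.3 to 26.3, 21.4 and 20.5 CPM (log2 change 0.79, adjusted p = 0.028). Every treated library was thus below control for the one and above control for the other, while the scaffold Magi2 (log2 change −1.14, adjusted p = 0.0181) and the actin crosslinker Actn4 (log2 change −0.87, adjusted p = 0.0357; adjusted p = 0.0512 with the GC offset) fell. The podocyte transcription factor Wt1 overlapped (log2 change −0.30, 95% interval −0.75 to 0.15). Of 17 markers 2 were higher and 4 lower (35.3%, against 13.7% of all genes). The median was −0.30, and 0 (without NCD vehicle replicate 1) to 6 were called when 1 library was left out.

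Smooth muscle genes were lower in part, and single matrix genes moved either way. Myh11, smooth muscle myosin, fell from 17.6, 9.76 and 15 to 4.91, 4.75 and 4.04 CPM (log2 fold change −1.63, SE 0.25, adjusted p = 0.00832) and held in every leave-one-out fit. Acta2, smooth muscle actin, fell from 12.4, 7.69 and 11.4 to 3.67, 5.63 and 5.18 CPM (log2 change −1.12, adjusted p = 0.0207). Of 13 mesangial and smooth muscle markers 3 fell and 0 rose (23.1% called, against 13.7% of all genes, median −0.60). Those that fell were Myh11, Acta2 and Gata3, and Gata3 is also counted among the principal cell markers above. Leaving out 1 library left 1 (without NCD vehicle replicate 1) to 6 of the 13 markers called. Among matrix genes, Col5a2, a fibrillar collagen chain, fell from 25.8, 24.1 and 22 to 10.9, 11.2 and 7.88 CPM (log2 change −1.26, adjusted p = 0.00832), as did, outside the matrix list, Col23a1 (log2 change −2.24, adjusted p = 0.0093) and Ecm1 (log2 change −1.77, adjusted p = 0.00832), and these calls held in every leave-one-out fit. Col3a1 rose from 9.68, 10.3 and 10.1 to 18.3, 12.6 and 46.2 CPM (log2 change 1.36, adjusted p = 0.0422), but without HFD-STZ DHZ replicate 3 the change was 0.64 (adjusted p = 0.13), and with the GC offset its adjusted p was 0.0595. Col1a1 overlapped (log2 change 0.15, adjusted p = 0.816). Of 25 genes of fibrosis and matrix 1 was higher and 1 lower (8.0% called, against 13.7% of all genes), with a median of −0.09. Itgav, an integrin subunit that activates TGF-beta, rose from 16.3, 29.9 and 25 to 87.2, 81.6 and 57.5 CPM (log2 change 1.67, adjusted p = 0.00897), and Skil, an inhibitor of TGF-beta signalling, from 2.19, 3.74 and 3.86 to 9.94, 11.6 and 11.5 CPM (log2 change 1.74, adjusted p = 0.00832); both held in every leave-one-out fit.

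Genes of hormone and growth factor signalling gave single changes in both directions. In the renin-angiotensin system Enpep, the aminopeptidase that breaks down angiotensin II, rose from 13.8, 11.8 and 13.4 to 31.6, 25.2 and 34.2 CPM (log2 change 1.22, adjusted p = 0.0111). Agt, the precursor angiotensinogen, fell from 16.4, 23.6 and 21.9 to 9.17, 13.3 and 7.97 CPM (log2 change −1.02, adjusted p = 0.0218), and the prorenin receptor Atp6ap2 rose from 12.9, 15.4 and 15.8 to 30.6, 31.3 and 23 CPM (log2 change 0.94, adjusted p = 0.0297). Renin itself, Ren1, did not pass (log2 change 0.91, adjusted p = 0.0784). Its groups did not overlap, which was so for 44.1% of all genes. Of 10 genes 2 were higher and 1 lower (30.0%, against 13.7% of all genes). The list's median was 0.70, and 0 (without HFD-STZ DHZ replicate 1) to 6 were called when 1 library was left out. In the TGF-beta pathway the ligand Tgfb2 fell from 3.31, 4.86 and 4.60 to 1.62, 1.65 and 1.77 CPM (log2 change −1.34, adjusted p = 0.0138), while the receptor Tgfbr2 rose from 6.26, 6.81 and 8.64 to 12.6, 13.1 and 15.7 CPM (log2 change 0.92, adjusted p = 0.0199) and the signal carrier Smad2 rose (log2 change 0.80, adjusted p = 0.0341). Of 19 genes 3 were higher and 3 lower (31.6%, against 13.7% of all genes). Their median was −0.07, and 1 (without NCD vehicle replicate 2) to 8 were called when 1 library was left out.

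Other genes with large changes were mostly at low levels. Gulo, which completes vitamin C synthesis, was at 0, 0 and 0.153 CPM in NCD vehicle and 3.94, 1.67 and 0.552 in HFD-STZ DHZ (adjusted p = 0.0187), with no fold change given because 2 control libraries held no count. Cyp2d12, a cytochrome P450 from a cluster of similar genes, fell from 46, 29.5 and 27.2 to 6.91, 6.00 and 4.62 CPM (log2 change −2.55, adjusted p = 0.00832) and held in every leave-one-out fit. Prkag3, a regulatory subunit of AMPK, fell from 11.2, 3.82 and 2.89 to 0.588, 0.740 and 1.60 CPM (log2 change −2.61, adjusted p = 0.0151), and with NCD vehicle replicate 1 left out it was −1.78 (adjusted p = 0.0593). The activin receptor Acvr2b (log2 change −2.16, adjusted p = 0.0111), the zinc transporter Slc39a2 (log2 change −2.08, adjusted p = 0.0093) and Nos1ap, a partner of neuronal nitric oxide synthase (log2 change −1.94, adjusted p = 0.00987), fell too. The thiamine transporter Slc19a3 rose from 2.62, 3.61 and 2.76 to 11, 12.4 and 8.72 CPM (log2 change 1.84, adjusted p = 0.00883) and Nxt2, of messenger RNA export, from 5.24, 5.23 and 6.29 to 19.4, 15 and 13.7 CPM (log2 change 1.52, adjusted p = 0.00832), and both held.

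Between HFD-STZ vehicle and NCD vehicle 9 genes were called (0.0524% of those tested), and between HFD-STZ DHZ and HFD-STZ vehicle 3796 (22.1%). These comparisons share libraries with the one described here, so their values are given only side by side. In the order HFD-STZ vehicle minus NCD vehicle, HFD-STZ DHZ minus HFD-STZ vehicle, and HFD-STZ DHZ minus NCD vehicle, the log2 fold changes of Sox9 were 3.72 (adjusted p = 0.000837), −1.28 (adjusted p = 0.0101) and 2.44 (adjusted p = 0.00832). For S100g they were −3.06 (adjusted p = 0.00095), 0.41 (adjusted p = 0.271) and −2.65 (adjusted p = 0.00309). The collagen gene Col5a2 had −1.30 (adjusted p = 0.0465), 0.05 (adjusted p = 0.887) and −1.26 (adjusted p = 0.00832), and the growth factor gene Mdk −1.92 (adjusted p = 0.0348), 0.58 (adjusted p = 0.125) and −1.34 (adjusted p = 0.0107). For S100g, Col5a2 and Mdk the treated libraries were thus on the same side of control as HFD-STZ vehicle. Mdk stood at 11.3, 10.9 and 11.7 CPM in NCD vehicle, 3.09, 1.75 and 3.77 in HFD-STZ vehicle and 5.20, 3.98 and 4.19 in HFD-STZ DHZ. Acmsd, an enzyme of tryptophan breakdown, had −1.73 (adjusted p = 0.0448), 1.48 (adjusted p = 0.00504) and −0.25 (95% interval −0.77 to 0.27), and its treated libraries (9.85, 13.4 and 14.8 CPM) overlapped the controls (17.5, 14 and 13.8).

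The other genes of those 9 were Slc6a19, Dzip1, Slitrk4 and Greb1. Slc6a19, whose levels are given with the proximal tubule, had −1.73 (adjusted p = 0.0348), 1.86 (adjusted p = 0.00309) and 0.13 (adjusted p = 0.729). Dzip1, a ciliary gene, had 1.99 (adjusted p = 0.0448), −0.08 (adjusted p = 0.862) and 1.92 (adjusted p = 0.00832), with treated libraries at 9.82, 5.54 and 11.2 CPM and controls at 2.73, 2.28 and 2.04. Slitrk4, a neuronal membrane protein gene, stood at 0.0535, 0.208 and 0.332 CPM in control and 2.35, 0.694 and 0.785 in treated libraries (log2 change 2.50, adjusted p = 0.0217). Its change was 3.15 (adjusted p = 0.0306) without NCD vehicle replicate 3 and 1.75 (adjusted p = 0.0882) without HFD-STZ DHZ replicate 1. NCD vehicle replicate 1 lay below the level of 3 counts for Slitrk4 (0.160 CPM), so the size of its change is uncertain. Greb1, an oestrogen-induced gene, had 3.02 (adjusted p = 0.0453) and −2.17 (adjusted p = 0.00676), and against control 0.85 (95% interval −0.14 to 1.83, adjusted p = 0.218). Among genes whose calls held in every leave-one-out fit, Mdh1 stood at 48, 41.4 and 63.1 CPM in HFD-STZ vehicle against 219, 227 and 164 in HFD-STZ DHZ, and Nxt2 at 4.07, 3.78 and 4.57 against 19.4, 15 and 13.7. For both genes the treated libraries lay above all libraries of the other groups. For Abcc6, a transporter gene of the proximal tubule and liver, both diabetic groups lay below control. It stood at 6.10, 5.69 and 4.83 CPM in NCD vehicle, 1.95, 2.16 and 1.93 in HFD-STZ vehicle and 1.76, 1.60 and 2.21 in HFD-STZ DHZ (log2 change −1.57, adjusted p = 0.00832 for treated against control).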

How the data were processed

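Messenger RNA of mouse kidney was captured on oligo-dT beads and made into 9 strand-marked libraries, per the labels' protocols. The authors deposited raw counts per gene, 1 column per library; FastQC, Trim Galore and STAR and the builds GRCm39 and mm39 are named in the submitters' processing notes, while no source used here gives the counting tool or its strand setting. Reads that fit several gene copies or overlapping models may therefore be split between them. Models on the opposite strand cover, among others, 30.7% of the exon bases of Cdkn1c, 28.4% of Dzip1, 26.8% of Ctsl and 20.4% of Hoxa7. Spp1 shares 18.8% with a model on its own strand. Symbols were matched for 99.5% of the genes tested.

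Counts were tested with edgeR 4.0.16 in R 4.3.3: genes with low counts were removed by filterByExpr, libraries were scaled by TMM, and 1 quasi-likelihood model (robust) with group as its term was fitted to the 9 libraries, so that the 3 groups shared an estimate of the spread (common dispersion 0.0893). HFD-STZ DHZ minus NCD vehicle was the contrast. P-values were adjusted over all genes by Benjamini-Hochberg with a threshold of 0.05, and SEs and 95% intervals are on the log2 scale. Levels are counts per M (mega) of TMM-scaled library size. Library size held all counts of the genes tested, mitochondrial genes and pseudogenes included. On that scale 3 counts correspond to 0.0463 to 0.160 CPM in the 6 libraries compared.

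Named genes were, among protein-coding genes with a symbol other than a gene-model number and a mean level, on the log2 CPM scale, of at least 1, called and without overlap between the groups, the 12 with the largest rise, the 12 with the largest fall and the 6 with the lowest p, then up to 3 (with 3 or more called, 4) of lowest p from each of 61 gene lists, 9 genes of earlier results and the sex-linked genes. The comparison, the lists and these rules were chosen with earlier results of these data known. Alternatives were other scaling (library size, RLE), other tools (DESeq2 1.42.0, limma-voom with limma 3.58.1), other filters, other sets of libraries, a replicate block, a term for libraries with Y-linked transcripts, and, added after seeing the data, a GC offset, a fit to protein-coding nuclear genes and a fit without 2 libraries. Scripts were tested on simulated data. Promoter windows are RefSeq's on GRCm38.p6 and were used for their sequence alone.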

Additional observations from a re-analysis of the deposited data

How the results depend on the processing

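Against 2352 genes called (1084 higher and 1268 lower), 36 (18 and 18) were called with library size alone, 3530 (1904 lower) with DESeq2, 3981 (1873 and 2108) with the HFD-STZ vehicle libraries left out, 3617 (1739 higher) with a term for Y-linked libraries, 4869 (2434 and 2435) with Xist libraries alone, and 3380 (1732 higher) without the filter. RLE size factors gave 2345 and limma-voom 2591. Leaving out 1 library gave 112 to 3706 calls, 51 to 1755 higher and 61 to 1951 lower. The share of calls that were higher was 46.1%, and it was 33.8%, 37.1% and 37.7% without NCD vehicle replicates 2, 1 and 3. Without both NCD vehicle replicate 1 and HFD-STZ DHZ replicate 3, edgeR called 0 genes (0 higher, 0 lower) with 3714 at an unadjusted p below 0.05. None of the 2352 calls changed direction under any of these settings, and the median of all genes moved by less than 0.1 log2. Fits with libraries left out have fewer replicates; otherwise the cause was not tested.

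With a replicate block 772 genes were called (347 higher and 425 lower), 770 of them among the 2352. The numbers were not taken as pairs: deviations of same-numbered libraries correlated across genes at −0.41 to 0.22, while NCD vehicle replicate 1 and HFD-STZ DHZ replicate 3, which both carry Y-linked transcripts, correlated at 0.50.

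Of 181 called genes for which each setting was tabulated, 14 stayed called with library size alone, 178 with RLE, 168 with limma-voom, 93 with the block and 149 with the GC offset, and 45 to 128 when 1 of the 6 libraries was left out. The median of 18 of 57 lists changed sign under at least 1 setting, for 16 of them when a single library was left out. In 2 of these lists the median was larger than 1 SD between libraries and moved by more than it: inflammatory cytokines and NF-kB from 0.38 to −0.004 without HFD-STZ DHZ replicate 3 (range over single libraries left out −0.004 to 0.62), and the proximal straight tubule from −0.30 to 0.23 without NCD vehicle replicate 1 (range −0.33 to 0.23). Among the others were the mitochondrial genome (−0.25, and 0.40 without NCD vehicle replicate 1), fibrosis and matrix (−0.09, and 0.10 without HFD-STZ DHZ replicate 2), white adipocytes (−0.51, and 1.19 without NCD vehicle replicate 3), the TGF-beta pathway (−0.07, and 0.05 without HFD-STZ DHZ replicate 2) and vitamin D (0.01, and −0.08 without HFD-STZ DHZ replicate 2). A count of 0 allows up to 0.0463 to 0.160 CPM in the 6 libraries compared, counting error alone, and no fold change can be read below that.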

Other observations

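Hox genes, which mark position along the body axis, formed a family chosen after its values were seen. Of 29 tested 7 were lower and 0 higher, where 7.38% of all genes were lower, with a median of −0.24. Hoxc9 fell from 37.8, 17.9 and 16 to 4.32, 5.35 and 7.12 CPM (log2 fold change −2.09, SE 0.32, adjusted p = 0.00832) and Hoxd4 from 18.7, 17.8 and 13.1 to 3.79, 6.05 and 4.74 CPM (log2 fold change −1.76, SE 0.24, adjusted p = 0.00832), and both calls held in every leave-one-out fit. HFD-STZ vehicle lay within or above the control range for both, at 28, 26.8 and 24.5 CPM for Hoxc9 and 26.3, 23.2 and 17.8 CPM for Hoxd4. Hoxb4 (log2 change −1.74, adjusted p = 0.00883), Hoxc8 (log2 change −1.67, adjusted p = 0.00897), Hoxa7 (log2 change −1.32, adjusted p = 0.0174), Hoxa5 (log2 change −1.22, adjusted p = 0.013) and Hoxc6 (log2 change −0.89, adjusted p = 0.0222) fell too. Hoxa9 (log2 change 0.07, 95% interval −0.35 to 0.48) overlapped and Hoxa10 did not pass (log2 change 0.57, adjusted p = 0.102). In Hoxc9, Hoxb4, Hoxc8 and Hoxa7 NCD vehicle replicate 1 was the highest of the 6 libraries. Of the 7, Hoxd4 shares 52.3% of its exon bases with neighbouring gene models on its strand, so its value is uncertain. For Hoxa7, a gene on the opposite strand covers 20.4% of the exon bases. The transcription factor Nfix fell from 34, 19.6 and 21.1 to 7.70, 7.17 and 6.86 CPM (log2 change −1.78, adjusted p = 0.00832) and held as well. It was also chosen after its values were seen.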
